A study of Mus musculus with 2 samples.

Results

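The nuclear genes for subunits of the mitochondrial respiratory chain and ATP synthase were examined in total RNA from hearts of mouse embryos at embryonic day 10.5. Members were the nuclear protein-coding genes whose GENCODE symbol belongs to the Nduf (with a, b, c, s or v and a digit), Sdh a to d, Uqcr, Cyc1, Cycs, Cyct, Cox4 to Cox8 or Atp5 series. This rule found 87 genes among 21461 nuclear protein-coding genes in the deposited tables, out of 43346 mouse genes in all. They comprised 35 genes of complex I, 4 of complex II, 9 of complex III, 2 for cytochrome c, 19 of complex IV and 16 of complex V. The remaining 2, Atp5s and Cox7a2l, encode a coupling factor and a supercomplex factor and are no subunits of a single complex. Ndufa4 and Ndufa4l2 carry complex I symbols but were counted with complex IV, to which the NDUFA4 protein belongs.

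The series held 1 group, heart of strain B6NCrl (a C57BL/6N substrain) at day 10.5, for which the labels name no genetic change and no treatment. Replicate 2 was a pool of hearts from 51 embryos and replicate 1 a separate pool from 69 embryos, each of both sexes. Each value is thus an average over many embryos and over all cells in the pool. Each library was made from 10 ng of total RNA above 200 nt, to which synthetic ERCC RNAs had been added. Expected counts on mouse genes totalled 39786163 in replicate 2 and 43295923 in replicate 1. All 15 heart muscle markers were detected in both libraries. They ranged from Actc1 with 11048 TPM in replicate 2 and 6437 TPM in replicate 1 down to Ryr2 with 12.9 TPM in replicate 2 and 8.8 TPM in replicate 1. Liver primordium markers were present too, with a summed level of 83.2 TPM in replicate 2 and 1652 TPM in replicate 1.

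Oxidative phosphorylation takes electrons from NADH at complex I and from succinate at complex II, passes them through ubiquinone to complex III, through cytochrome c to complex IV and on to oxygen. The proton gradient built by complexes I, III and IV drives complex V, the ATP synthase. A few core subunits are encoded in mitochondrial DNA, and nuclear genes, most of them described here, supply the others. Several complex IV subunits exist in alternative forms, of which Cox6a2, Cox7a1 and Cox8b are known from adult heart and skeletal muscle. The embryonic heart at this stage beats while its mitochondria are still immature, and the adult heart depends on this machinery for most of its ATP.

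The muscle forms and the broad forms are separate genes with separate promoters. The 250 bases before the start of 5 of these genes are shown because the results below turn on the balance within these pairs. The sequences are from RefSeq (GRCm38.p6, the same bases as mm10), written 5′ to 3′ on the gene's own strand, with CpG dinucleotides in capitals. In order, they lie at chr7:30183921-30184170 (plus strand), chr9:79759854-79760103 (minus), chr7:140900447-140900696 (minus), chr19:7217617-7217866 (minus) and chr5:115348959-115349208 (minus).
Cox7a1: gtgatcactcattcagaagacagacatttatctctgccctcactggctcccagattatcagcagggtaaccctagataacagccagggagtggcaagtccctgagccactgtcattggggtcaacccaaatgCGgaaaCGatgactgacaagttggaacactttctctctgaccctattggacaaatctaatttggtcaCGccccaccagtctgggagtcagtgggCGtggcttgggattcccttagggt
Cox7a2: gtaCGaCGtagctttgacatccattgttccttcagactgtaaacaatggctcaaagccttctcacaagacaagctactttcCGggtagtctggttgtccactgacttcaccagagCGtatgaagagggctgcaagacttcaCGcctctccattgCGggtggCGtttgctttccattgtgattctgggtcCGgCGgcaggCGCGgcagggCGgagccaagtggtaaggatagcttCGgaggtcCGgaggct
Cox8b: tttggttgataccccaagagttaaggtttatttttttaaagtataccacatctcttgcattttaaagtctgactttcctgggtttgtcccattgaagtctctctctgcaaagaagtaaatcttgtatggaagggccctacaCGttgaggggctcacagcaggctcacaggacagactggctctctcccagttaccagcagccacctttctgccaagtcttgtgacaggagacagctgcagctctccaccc
Cox8a: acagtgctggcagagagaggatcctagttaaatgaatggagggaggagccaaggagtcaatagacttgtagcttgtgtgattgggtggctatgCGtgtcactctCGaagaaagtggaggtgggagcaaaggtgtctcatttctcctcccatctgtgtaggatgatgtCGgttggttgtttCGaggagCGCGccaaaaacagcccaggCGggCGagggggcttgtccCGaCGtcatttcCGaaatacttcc
Cox6a1: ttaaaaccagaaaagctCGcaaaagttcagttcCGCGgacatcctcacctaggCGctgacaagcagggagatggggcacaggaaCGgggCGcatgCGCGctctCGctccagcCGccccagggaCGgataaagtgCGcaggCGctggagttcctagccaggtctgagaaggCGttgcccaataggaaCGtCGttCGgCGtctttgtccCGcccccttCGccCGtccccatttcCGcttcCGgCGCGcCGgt

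Of the muscle forms, Cox7a1 held 4 CpG dinucleotides in this stretch and Cox8b held 1, and the Cox6a2 promoter was not analysed here. The broad-form promoters held 14 in Cox7a2, 11 in Cox8a and 26 in Cox6a1. GC content was 51.2% in Cox7a1 and 47.2% in Cox8b, against 54.8% in Cox7a2, 52.8% in Cox8a and 62.8% in Cox6a1. The CpG counts of Cox7a1 and Cox8b lay below, and those of Cox7a2, Cox8a and Cox6a1 above, the median of 10 over 16317 nuclear protein-coding promoters of the same length. Promoters were matched for 68 of the 87 genes, with a median of 14 CpG and 55.6% GC, against 56% GC over all. The NRF1 motif (GCGC, then A and any base, then GCGC) was found on either strand in 12 of the 68 (17.6%), against 5.52% of all promoters. The ETS core CCGGAAG was found in 11 (16.2%), against 9.52% of all. Atp5h, Cox6a1 and Sdhd held both. In the Cox6a1 stretch above the matches do not overlap, with NRF1 at 162 to 153 and 117 to 108 bases before the start and ETS, on the other strand, at 16 to 10 bases before it. The E-box CAGCTG was found in 6 of the 68 (8.82%), against 11.9% of all, and 1 of the 6 was Cox8b, at 19 to 14 bases before the start. TATAAA was found in 6 (8.82%), against 11.8% of all, and neither the YY1 sequence AAGATGGCG (0.742% of all) nor a MEF2 match (2.68% of all) was found in any of the 68. These matches are descriptions of letters in the window, and no factor was measured on them. A second feature not used by the rule was gene order. For 22 of the 87 genes (25.3%) another protein-coding gene started in the opposite direction within 1000 bases, against 7.20% of all nuclear protein-coding genes. Only 12218 of those 21461 genes were detected in both libraries. No share over detected genes was formed for gene order or for the motifs.

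Levels are given in TPM, a relative abundance that is divided by transcript length and can be compared between genes. Of the 87 genes, 84 reached 1 TPM in both libraries and 77 averaged 100 TPM or more, a level reached by 7.19% of nuclear protein-coding genes. There were 15 members among the 100 most abundant nuclear protein-coding genes. Of all nuclear protein-coding TPM, the members together held 6.45% in replicate 2 and 5.06% in replicate 1 (mean 5.76 ± 0.98%, SD, n = 2). Their median level was 415 TPM, against 3.56 TPM over all nuclear protein-coding genes. The transcripts are short, with a median effective length of 605 nt over the 84 detected members against 2395 nt over 12218 detected nuclear protein-coding genes. Undivided by length, the members held 2.57% of nuclear protein-coding counts.

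**Figure D1:**
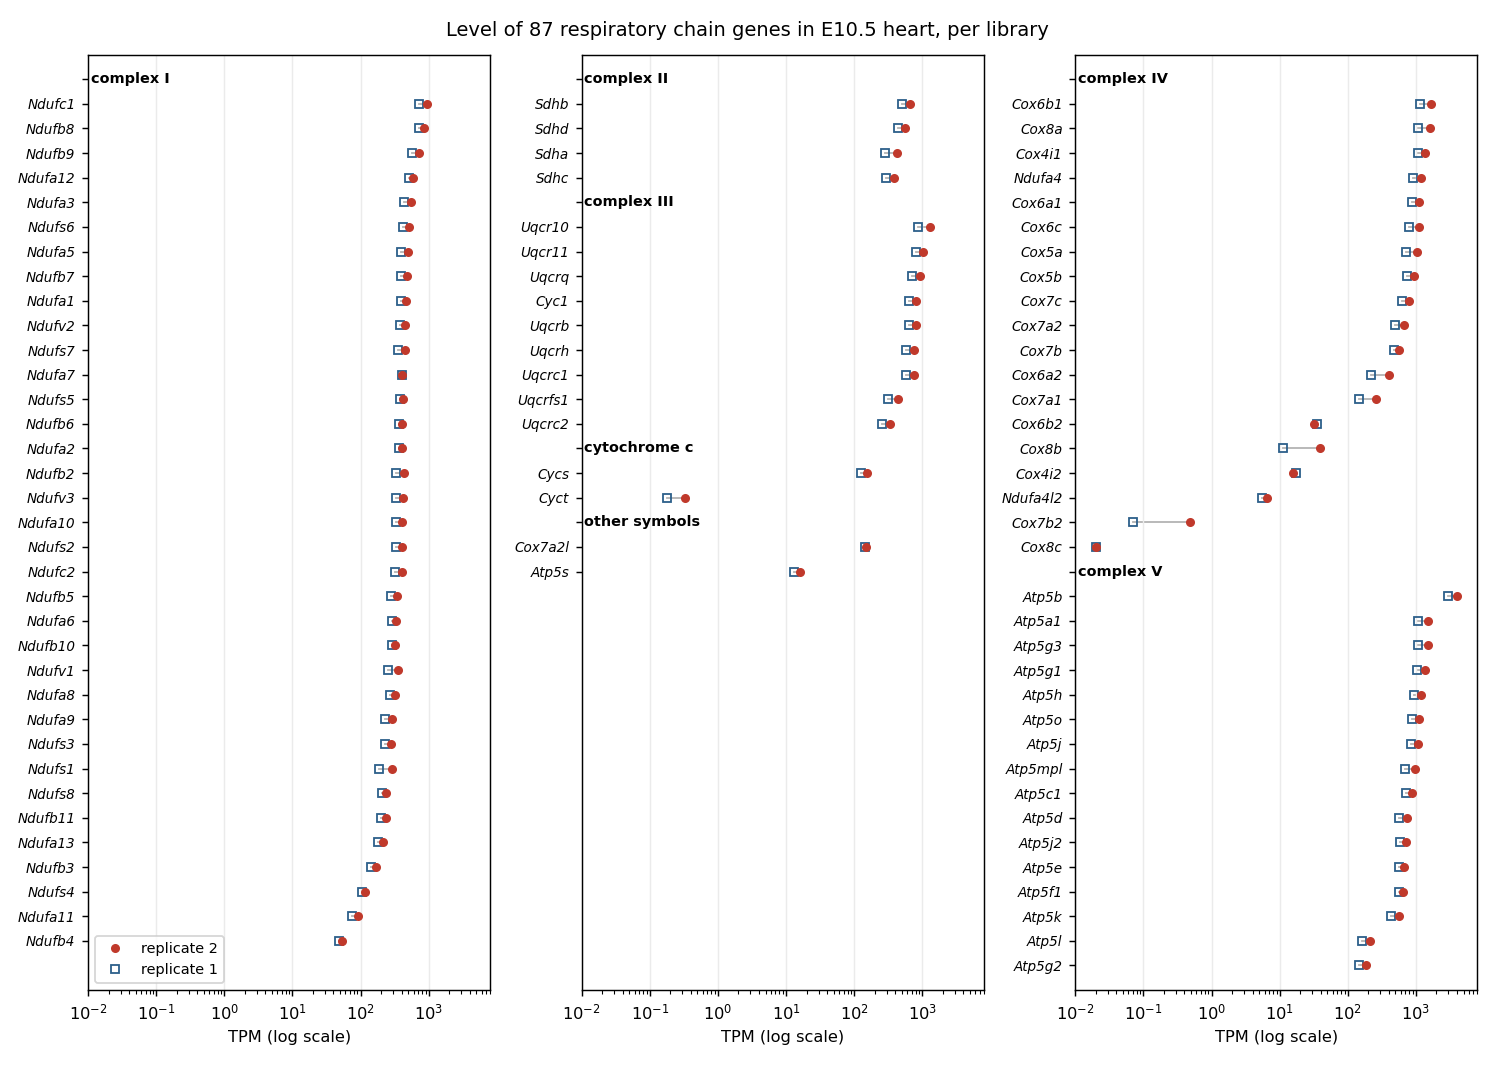
TPM of each of the 87 genes on a log axis, grouped by complex and ordered by mean level, with replicate 2 as filled circles and replicate 1 as open squares; Cox8c, listed at 0 in both, is drawn at the left. Of the 87 genes, 77 average 100 TPM or more, and replicate 2 stands right of replicate 1 for nearly all, while the alternative complex IV forms and Cyct form a lower tail.

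Complex I, the NADH dehydrogenase, had the largest number of genes and the most even levels among the groups of more than 10 genes. All 35 were detected, with a median of 370 TPM, and 33 averaged 100 TPM or more. The highest were the accessory subunits Ndufc1 (ENSMUSG00000037152.7, mm10 chromosome 3, 51404677 to 51408988) with 953 TPM in replicate 2 and 728 TPM in replicate 1, Ndufb8 with 839 TPM in replicate 2 and 719 TPM in replicate 1, and Ndufb9 with 712 TPM in replicate 2 and 575 TPM in replicate 1. Lowest stood the accessory subunits Ndufs4 with 116 TPM in replicate 2 and 105 TPM in replicate 1, Ndufa11 with 92.3 TPM in replicate 2 and 75.6 TPM in replicate 1, and Ndufb4 with 53.8 TPM in replicate 2 and 48.8 TPM in replicate 1. Ndufc1 exceeded Ndufa11 10.3-fold in replicate 2 and 9.63-fold in replicate 1. This difference rests on effective length, in replicate 2 245 nt for Ndufc1 and 2562 nt for Ndufa11. Their counts were close, with 6402 for Ndufc1 and 6485 for Ndufa11 in replicate 2. In replicate 1 they were 5481 for Ndufc1 and 5888 for Ndufa11. The Ndufb4 value is uncertain because a near-identical copy held more reads than the gene. The 7 core subunits, which together carry the redox centres of the peripheral arm, had a median of 303 TPM, and the 28 accessory subunits one of 380 TPM. All 7 core genes lay between Ndufs8 at 221 TPM and Ndufv2 at 415 TPM. A further accessory subunit that the rule leaves out, the acyl carrier protein Ndufab1, had 1140 TPM in replicate 2 and 884 TPM in replicate 1.

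Complex II, succinate dehydrogenase, has 4 subunits, and the mean levels of their mRNAs lay within 1.69-fold of each other. Sdhb, the iron-sulphur subunit, had 659 TPM in replicate 2 and 503 TPM in replicate 1. Sdhd, a membrane anchor, had 550 TPM in replicate 2 and 442 TPM in replicate 1. Sdha, the flavoprotein, had 426 TPM in replicate 2 and 285 TPM in replicate 1, and the anchor Sdhc had 390 TPM in replicate 2 and 298 TPM in replicate 1. Sdha stood above Sdhc in replicate 2 and below it in replicate 1, so these neighbours could not be ordered. By counts, undivided by length, Sdha stood above Sdhb, with 30708 against 18838 in replicate 2 and 22834 against 15958 in replicate 1.

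Complex III, the cytochrome bc1 complex, had higher levels than complex I, with a median of 723 TPM over 9 genes. By TPM the small subunits led. Uqcr10 had 1298 TPM in replicate 2 and 871 TPM in replicate 1, Uqcr11 had 1013 TPM in replicate 2 and 810 TPM in replicate 1, and Uqcrq had 931 TPM in replicate 2 and 710 TPM in replicate 1. At the low end stood Uqcrc1, a core protein, with 748 TPM in replicate 2 and 577 TPM in replicate 1, then Uqcrfs1, the Rieske iron-sulphur protein, with 433 TPM in replicate 2 and 317 TPM in replicate 1, and the core protein Uqcrc2 with 337 TPM in replicate 2 and 254 TPM in replicate 1. Uqcr10 exceeded Uqcrc2 3.86-fold in replicate 2 and 3.43-fold in replicate 1. This difference rests on effective length, in replicate 2 337 nt for Uqcr10 and 1685 nt for Uqcrc2. By counts Uqcrc2 stood higher, with 15557 against 12011 in replicate 2 and 13300 against 8940 in replicate 1. Uqcrc1 was above Uqcrc2, the other core protein, in both libraries.

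Cytochrome c is the soluble carrier between complexes III and IV. The somatic gene Cycs (ENSMUSG00000063694.5, chromosome 6, 50562563 to 50566538) was listed with 153 TPM in replicate 2 and 124 TPM in replicate 1, on 12007 counts in replicate 2 and 10786 counts in replicate 1. Cyct, the testis form, had 5 counts in replicate 2 and 3 counts in replicate 1. The 2 proteins, translated from the annotated coding sequences, share 86.7% of residues. The listed Cycs level lies below all 9 complex III genes, and it too is uncertain because of near-identical copies.

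Complex IV, cytochrome c oxidase, had a median of 577 TPM over 19 genes and the widest spread, with the alternative forms among them. The highest were Cox6b1 (ENSMUSG00000036751.6, chromosome 7, 30616861 to 30626151) with 1662 TPM in replicate 2 and 1144 TPM in replicate 1, Cox8a with 1632 TPM in replicate 2 and 1088 TPM in replicate 1, and Cox4i1 with 1370.0 TPM in replicate 2 and 1078 TPM in replicate 1. Cox4i1 and Cox5a, with 1026 TPM in replicate 2 and 710 TPM in replicate 1, join the mitochondrially encoded core first during assembly. Lowest were Ndufa4l2, Cox7b2 and Cox8c. Cox8c, a testis form in adult mammals, had 0 counts in both libraries, which allows up to 0.290 TPM in replicate 2 and 0.262 TPM in replicate 1 (3 counts). Cox7b2, likewise known from testis, had 6 counts in replicate 2 and 1 count in replicate 1. Such limits and the deposited intervals cover counting error only.

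Complex V, the ATP synthase, had the highest median, 817 TPM over 16 genes, and 7 of the 15 members among the 100 most abundant nuclear protein-coding genes. The catalytic F1 beta subunit Atp5b (ENSMUSG00000025393.8, chromosome 10, 128083273 to 128090391) led all members with 4028 TPM in replicate 2 and 2955 TPM in replicate 1, and ranked 12 among nuclear protein-coding genes. Next came the F1 alpha subunit Atp5a1 with 1493 TPM in replicate 2 and 1090 TPM in replicate 1, and Atp5g3, a gene of the membrane c-ring, with 1504 TPM in replicate 2 and 1066 TPM in replicate 1. Atp5b exceeded Atp5a1 2.70-fold in replicate 2 and 2.71-fold in replicate 1. F1 holds equal numbers of alpha and beta subunits. Atp5b exceeded Atp5c1, the single gamma subunit, 4.53-fold in replicate 2 and 4.16-fold in replicate 1.

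The lowest genes of complex V were Atp5k (subunit e) with 572 TPM in replicate 2 and 433 TPM in replicate 1, Atp5l (subunit g) with 214 TPM in replicate 2 and 160 TPM in replicate 1, and Atp5g2 with 188 TPM in replicate 2 and 148 TPM in replicate 1. Subunit c is encoded by Atp5g1, Atp5g2 and Atp5g3, whose precursors differ in their presequences. The translated products of Atp5g3 and Atp5g1 are identical over their last 86 residues, and both share the last 78 with Atp5g2. Of the 3 genes, Atp5g3 and Atp5g1 were close, the second with 1375 TPM in replicate 2 and 1031 TPM in replicate 1, while Atp5g3 exceeded Atp5g2 8.00-fold in replicate 2 and 7.21-fold in replicate 1.

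Several low values above depend on how the tables divide reads between near-identical sequences. Other genes, 40 of 43 of them pseudogenes, were at least 95% identical to 23 of the members over at least 50% of the shorter transcript. For 6 members these copies held over 5% as many counts as the member. Cycs had 12007 counts in replicate 2 and 10786 in replicate 1, and its copy Gm10053 (chromosome 19, 24875686 to 24876631, annotated as protein-coding, 99.9% identical) had 14987 counts in replicate 2 and 12865 in replicate 1. Ndufb4 had 916 counts in replicate 2 and 821 in replicate 1, and the processed pseudogene Ndufb4c (chromosome 15, 73809507 to 73809896, 100% identical) had 3041 counts in replicate 2 and 2727 in replicate 1. Atp5l had 2414 counts in replicate 2 and 2010 in replicate 1, against 8473 in replicate 2 and 7598 in replicate 1 for the processed pseudogene Gm10221. In each case the copy was listed above the subunit gene in both libraries. With the TPM of all copies added, an alternative chosen after the data were seen, Cycs averaged 1672 TPM, against 139 TPM as listed, and Ndufb4 396 TPM, against 51.3 TPM. The same sum was 1053 TPM for Atp5l, against 187 TPM as listed, 489 TPM for Atp5g2, against 168 TPM, and 1562 TPM for Cox7c, against 711 TPM. Each sum divides a copy's reads by the copy's own length, so it is no estimate of the gene's level. By counts, the copies held 179% as many as Cycs in replicate 2 and 171% in replicate 1. For Cox7c they held 26.8% in replicate 2 and 28.8% in replicate 1. Which locus the reads came from was not tested. An expected count more than 0.005 from a whole number, as divided reads give, was listed in at least 1 of the libraries for 29 of the 87 genes.

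**Figure D2:**
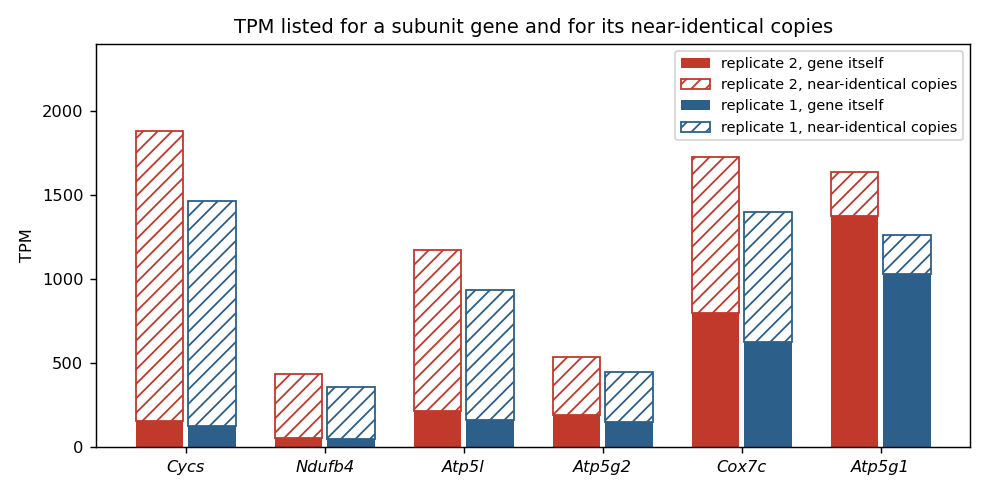
TPM listed for 6 subunit genes (solid) and for their near-identical copies (hatched, stacked), with replicate 2 left and replicate 1 right in each pair of bars. For Cycs, Ndufb4, Atp5l, Atp5g2 and Cox7c most of the summed TPM lies on the copies, and for Atp5g1 most lies on the gene itself.

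The balance between alternative complex IV subunits was set against a limit. For each gene of a pair, the difference that 95% of genes of like level do not exceed between the libraries was taken. The limit combines both differences as the root of their summed squares. It covers spread between libraries, not effects of transcript length or of read division between genes. Ratios are log2 of the TPM of the tissue-restricted form over that of the broad form, with a pseudocount of 0.01 TPM. Cox6a2 (ENSMUSG00000030785.7, chromosome 7, 128205435 to 128206387) had 403 TPM in replicate 2 and 223 TPM in replicate 1, and its broad partner Cox6a1 had 1123 TPM in replicate 2 and 873 TPM in replicate 1. Cox6a2 thus made up 26.4% of the pair in replicate 2 and 20.3% in replicate 1. Its log2 ratio of -1.72 ± 0.35 (SD, n = 2) passed the limit of 1.07. Cox7a1 (ENSMUSG00000074218.2, chromosome 7, 30184144 to 30186078) had 256 TPM in replicate 2 and 147 TPM in replicate 1, and Cox7a2 had 663 TPM in replicate 2 and 491 TPM in replicate 1. Cox7a1 made up 27.8% of its pair in replicate 2 and 23.1% in replicate 1, with a log2 ratio of -1.56 ± 0.26 against a limit of 1.10. From counts undivided by length the Cox7a1 ratio was -2.86, so its share depends on the length division. At this stage the broad forms of subunits 6a and 7a were in excess, and both muscle forms stood above 100 TPM in each library.

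The third muscle form was far lower. Cox8b (ENSMUSG00000025488.8, chromosome 7, 140898945 to 140900446) had 39.5 TPM in replicate 2 and 11.2 TPM in replicate 1, on 285 counts in replicate 2 and 90 counts in replicate 1. Cox8a exceeded it 41.3-fold in replicate 2 and 96.7-fold in replicate 1, a log2 ratio of -5.98 ± 0.87. Cox8b made up 2.36% of the pair in replicate 2 and 1.02% in replicate 1. The muscle forms therefore did not stand at 1 common share of their subunits. The 3 pairs differ in protein sequence too, with 60% of residues identical between Cox6a2 and Cox6a1, 56.2% between Cox7a1 and Cox7a2 and 42.6% between Cox8b and Cox8a.

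The other restricted forms were minor. Cox4i2, the lung-enriched and hypoxia-responsive form of subunit 4, had 15.9 TPM in replicate 2 and 17.6 TPM in replicate 1, and its log2 ratio over Cox4i1 was -6.18 ± 0.35. Cox6b2, a testis form, had 31.9 TPM in replicate 2 and 35.2 TPM in replicate 1, with a log2 ratio of -5.36 ± 0.48 over Cox6b1. Ndufa4l2, a hypoxia-induced relative of Ndufa4, had 6.48 TPM in replicate 2 and 5.57 TPM in replicate 1, against 1190.0 TPM in replicate 2 and 893 TPM in replicate 1 for Ndufa4, a log2 ratio of -7.42 ± 0.14. All 6 ratios passed their limits, and no ratio was formed for Cox8c, Cox7b2 and Cyct, whose mean counts lay below 10. Skeletal myoblasts also use the muscle forms. Of 6 myoblast markers the most abundant was Mylpf, a fast myosin light chain, with 42.2 TPM in replicate 2 and 30.4 TPM in replicate 1. Ckm had 6.67 TPM in replicate 2 and 2.64 TPM in replicate 1, and Actn3 had 5.8 TPM in replicate 2 and 8.3 TPM in replicate 1. Lowest were the regulators, Myf5 with 1.12 TPM in replicate 2 and 2.35 TPM in replicate 1, Myog with 0.73 TPM in replicate 2 and 1.95 TPM in replicate 1, and Myod1 with 0.15 TPM in replicate 2 and 0.71 TPM in replicate 1. What part such cells had in the muscle forms' levels was not tested. Fewer cells of a type and less RNA per cell cannot be told apart in such bulk values.

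**Figure D3:**
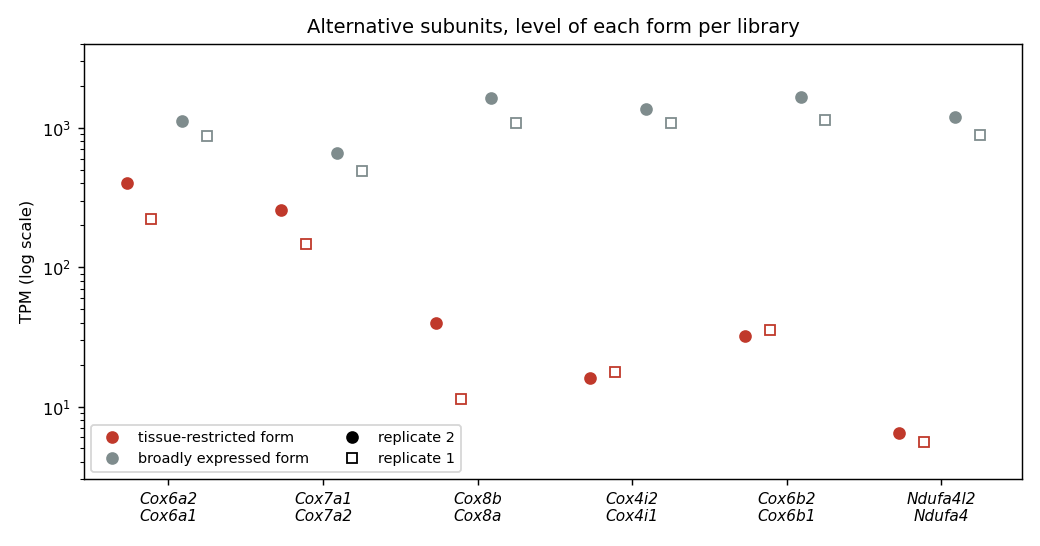
TPM on a log axis of 6 pairs of alternative subunits, with the tissue-restricted form in red left of the broad form in grey, and replicate 2 (filled) left of replicate 1 (open). The red points of Cox6a2 and Cox7a1 lie closest to their grey partners, and Ndufa4l2 lies farthest from its partner.

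Within 2 of the genes the balance of transcripts was examined. Atp5c1 (ENSMUSG00000025781.10, chromosome 2, 10056016 to 10080510) encodes F1 gamma and has an alternative exon near its 3′ end, which human heart and skeletal muscle are known to leave out. Exon 9 of Atp5c1-203 (chromosome 2, 10056770 to 10056806, 37 nt, minus strand) is absent from Atp5c1-201. The coding sequences part only at their ends, which are shown from 24 shared bases on, with the bases after the shared part in capitals.
Atp5c1-201: atcatctctggggctgctgctctgTAA
Atp5c1-203: atcatctctggggctgctgctctgGATTAA

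The annotated proteins are 297 residues for Atp5c1-201 and 298 residues for Atp5c1-203. Atp5c1-201, the form without the exon, held 81.3% of the gene's TPM in replicate 2 and 67.0% in replicate 1 (74.2 ± 10.1%, SD, n = 2). Atp5c1-203 held 17.8% in replicate 2 and 31.7% in replicate 1. The form known from muscle was the main one in both libraries, and more so in replicate 2. Among 217 member transcripts with a mean of at least 50 counts, this was the largest change in share between the libraries, and 4 transcripts moved by 10 percentage points or more, the other pair being Ndufb4-201 and Ndufb4-202. The 2 Atp5c1 transcripts are also annotated with different ends, so reads outside the exon enter their division.

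Ndufv3 (ENSMUSG00000024038.12, chromosome 17, 31520115 to 31531331), an accessory subunit of complex I, has a short form of 104 residues and a long form of 468 residues that includes exon 3 of Ndufv3-201 (chromosome 17, 31527310 to 31528401, 1092 nt). The short form Ndufv3-202 held 88.8% of the gene's TPM in replicate 2 and 87.1% in replicate 1. The long form Ndufv3-201 held 10.6% in replicate 2 and 11.8% in replicate 1. By counts, which favour the longer transcript, the short form held 67.2% on average. The short form's share differed by 1.68 percentage points between the libraries.

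**Figure D4:**
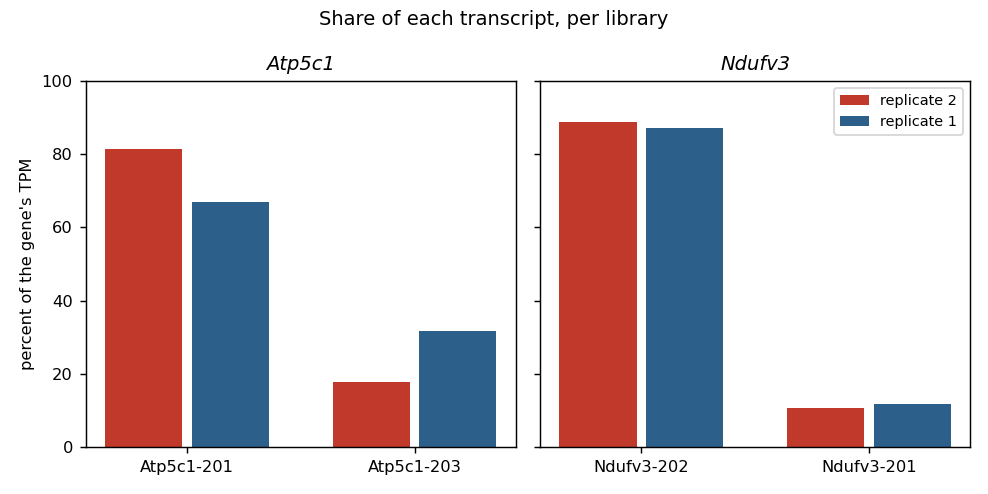
Percent of the gene's TPM held by the 2 main transcripts of Atp5c1 (left) and Ndufv3 (right), with replicate 2 in red left of replicate 1 in blue. Atp5c1-201 stands at 81.3% and 67.0%, and Ndufv3-202 at 88.8% and 87.1%.

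Between the libraries, nearly all members were higher in replicate 2. The log2 ratio of scaled counts, replicate 2 over replicate 1, was above 0 for 82 of the 84 members with a mean count of at least 50, against 51.8% of nuclear protein-coding genes and 55.2% of those of 100 TPM or more. The median ratio was 0.44 (quartiles 0.35 and 0.50), a 1.36-fold difference, against 0.01 over all nuclear protein-coding genes. The deposited TPM interval of replicate 2 lay wholly above that of replicate 1 for 78 of the 84, against 19.6% of all genes. Among genes of 100 TPM or more, 480 of 1544 had intervals apart in this direction. Only Cox8b was called at least 2-fold higher, against 2.22% of all genes, and none at least 2-fold lower, against 4.93%. Of 1544 nuclear protein-coding genes of 100 TPM or more, 30 were called higher and 10 lower. Calls of 2-fold were thus rare at that level in general and do not set the members apart. At least 1.5-fold higher were 12 members, against 7.73% of all genes. With 1 group of 2 pools there is no test of this difference, and it may be technical or biological. Under spike-in scaling 5 of the 84 members were called at least 2-fold higher, against 6.05% of all genes, a share near that background. That scaling moved the median of all genes to 0.34 and that of the members to 0.77. The gap of 0.43 could not change, because a scaling factor moves all log2 ratios nearly alike.

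**Figure D5:**
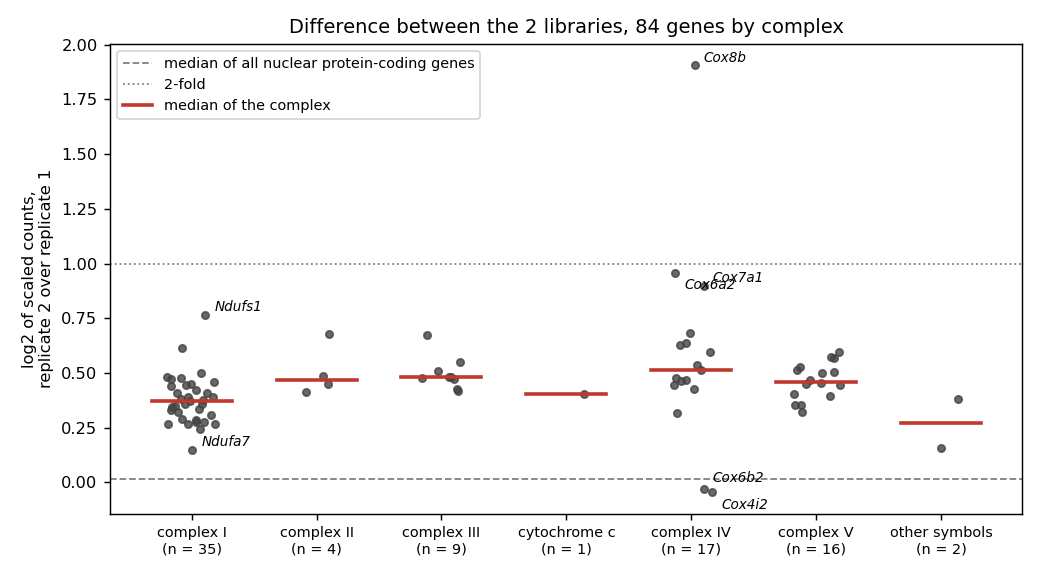
Log2 ratio of scaled counts, replicate 2 over replicate 1, for 84 genes by complex, with the median of each complex as a red line, the median of all nuclear protein-coding genes dashed and the 2-fold line dotted. The medians of complexes I to V lie between 0.37 and 0.51, and Cox8b, Cox6a2 and Cox7a1 stand highest.

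A median shift towards replicate 2 was found in all complexes, the smallest in complex I. The median was 0.37 in complex I, 0.47 in complex II, 0.48 in complex III, 0.51 in complex IV and 0.46 in complex V. Cycs stood at 0.40. Quartiles were 0.30 and 0.44 in complex I, 0.44 and 0.54 in complex II and 0.47 and 0.51 in complex III. They were 0.44 and 0.64 in complex IV and 0.40 and 0.52 in complex V. The 3 muscle forms lay above every other member, with log2 ratios of 1.91 for Cox8b, 0.96 for Cox6a2 and 0.90 for Cox7a1. Without them, complex IV had a median of 0.47 and no member a ratio above 0.77. At the other end stood Cox4i2 at -0.05, Cox6b2 at -0.03 and Ndufa7, an accessory subunit of complex I, at 0.15. These 3 genes had overlapping TPM intervals in the 2 libraries.

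Within complex I, the core genes Ndufs1 (0.77) and Ndufv1 (0.61), which encode subunits of the NADH-oxidising arm and were chosen after their values were seen, were at least 1.5-fold higher in replicate 2. They were 2 of 35 genes, a share below the 7.73% of all nuclear protein-coding genes. Ndufs1 had 289 TPM in replicate 2 and 185 TPM in replicate 1. Over the 7 core genes the median ratio was 0.44, and over the 28 accessory genes it was 0.36. Sdha at 0.68 and Uqcr10 at 0.67 led complexes II and III, and Atp5g3 at 0.59 led complex V. Across the 84 members, the order of levels was nearly the same in both libraries, with Pearson's r of 0.989 and Spearman's rho of 0.991 for log2 TPM. These coefficients describe genes within the same 2 libraries, and the genes are no independent replicates.

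The assembly factors, which build the complexes but are not part of them, were lower and shifted less. Of 45 factors, all were detected, with a median of 49.1 TPM, and 36 stood higher in replicate 2, against 51.8% of nuclear protein-coding genes. Their median log2 ratio was 0.21. None was called 2-fold higher, against 2.22% of all genes, or lower, against 4.93%, and a list this short could hold few such calls. The highest was Uqcc2, a complex III factor, with 333 TPM in replicate 2 and 366 TPM in replicate 1. Cox17, a copper chaperone, followed with 287 TPM in replicate 2 and 239 TPM in replicate 1. All 13 mitochondrially encoded subunit mRNAs were higher in replicate 2, with a median ratio of 0.60, and Ndufab1 stood at 0.43.

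Markers of cell types also differed between the libraries, some lists upward and some downward in replicate 2. All 15 heart muscle markers were higher in replicate 2, with a median ratio of 0.86 and a summed level of 43949 TPM in replicate 2 and 26106 TPM in replicate 1. All 12 liver primordium markers were lower in replicate 2, with a median ratio of -4.64 and a summed level of 83.2 TPM in replicate 2 and 1652 TPM in replicate 1; their highest gene, Afp, had 27.6 TPM in replicate 2 and 737 TPM in replicate 1. All 9 red cell markers in the tables were higher, with a median of 0.53 and sums of 51306 TPM in replicate 2 and 40303 TPM in replicate 1. Of 6 endothelium markers 5 were higher, with a median of 0.56 and sums of 364 TPM in replicate 2 and 316 TPM in replicate 1. Of 5 skeletal myoblast markers with enough counts 2 were higher, with sums over all 6 of 56.7 TPM in replicate 2 and 46.4 TPM in replicate 1. What part these cell types had in the shift of the respiratory chain genes was not tested.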

How the data were processed

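Total RNA of E10.5 hearts was measured in 2 libraries, replicate 2 (51 embryos) and replicate 1 (69 embryos). Per the deposited tables and labels, the authors used mm10 and annotation release M4; no source used here names the quantifying program or the use of strand, so antisense or overlapping genes are uncertain. Per gene and transcript, the deposited tables list expected counts (estimated reads), their posterior means, TPM, FPKM, an effective length, the percent of a gene's TPM per transcript, and bounds of a TPM interval. The deposited bounds were treated as a score; they frame the posterior mean, so the TPM itself can lie outside them. Totals were 41070978 expected counts in replicate 2 and 45205713 in replicate 1, of which 1284772 and 1909735 lay on spike-ins in the same order.

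Names, types and positions came from GENCODE M21 (GRCm38). The rule matched 88 genes there, of which a second Atp5o entry was not in the tables and was not analysed here. Expected counts were rounded and scaled with edgeR 4.0.16 (TMM, R 4.3.3); DESeq2 1.42.0 gave alternative size factors. Library ratios used a prior count of 0.5 and a mean count of at least 50. A gene was called where the ratio reached 2-fold and the deposited TPM intervals did not overlap. The limit of a pair was the root of summed squares of the 95th percentile of absolute library log2 ratios over the 500 genes nearest in level to each form. No p-value was computed. Near-identical copies were sought with blastn, promoter letters counted in RefSeq sequences, and identities taken from alignments of translated coding sequences (biopython 1.88). Python 3.11.15, numpy 2.4.6 and pandas 2.3.3 were used. The calling procedure was run on simulated counts, with intervals computed from counting error in place of the deposited TPM intervals. That run held no reads divided between genes, so it did not test the deposited intervals or read division.

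Genes, lists and pairs were chosen with earlier results of these data known. Named genes were the 3 highest and 3 lowest of each complex, both genes of each pair, the 3 extreme library ratios in each direction and members below 1 TPM; others were picked with their values in view or serve as complex, transcript, copy or list examples. Alternatives covered the unit, detection level, scaling, prior, count minimum, fold, pseudocount and each library alone. Ahsp, of the red cell list, was not used here.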

Additional observations from a re-analysis of the deposited data

Results flagged for a closer look

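Near-identical copies of subunit genes lie outside the members, and 7 of them were listed with more than the 3 counts that a count of 0 allows and with over 5% as many counts as the subunit gene. No control samples exist to set them against. Gm10108, a processed pseudogene on chromosome 5 that is 99.4% identical to Cycs, averaged 963 ± 173 TPM (SD, n = 2, as for all that follow). Gm10221, like Atp5l, averaged 865 ± 129 TPM. Gm12338, like Cox7c, averaged 840.4 ± 106 TPM. Gm10053, the annotated protein-coding copy of Cycs, averaged 570.2 ± 103 TPM. Ndufb4c, like Ndufb4, averaged 344 ± 51.6 TPM. Gm10175, like Atp5g2, averaged 321 ± 34.8 TPM, and Gm10039, like Atp5g1, averaged 245 ± 22.9 TPM. Each of the 7 copies had a higher TPM in replicate 2, from Gm10108 with 1085 TPM in replicate 2 and 840 TPM in replicate 1 to Gm10039 with 262 TPM in replicate 2 and 229 TPM in replicate 1. Gm10108 is annotated as a short transcript, so its TPM rests on 6518 counts in replicate 2 and 5599 in replicate 1, fewer than those of Gm10053.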

How the results depend on the processing

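All 6 pair ratios kept their sign and stayed past their limits under every alternative run, and no result reversed. Their size depended on length in part. Undivided by length, the log2 ratio was -2.86 for Cox7a1 over Cox7a2, against -1.56 from TPM, and -1.48 for Cox6a2 over Cox6a1, against -1.72. Scaling moved the medians of library ratios: under spike-in scaling they were 0.77 for all members, 0.69, 0.79, 0.80, 0.84 and 0.78 for complexes I to V and 0.73 for cytochrome c, and under total counts 0.32 for all members, 0.24, 0.34, 0.35, 0.39 and 0.33 for complexes I to V and 0.28 for cytochrome c. From deposited TPM the medians were 0.33 for all members, 0.36 for complex V and 0.30 for cytochrome c, which stood at 0.64 with no minimum count, since Cyct then entered. The gap between members and all genes stayed between 0.41 and 0.46. A change of library scaling factor could not alter this gap, because it moves all log2 ratios nearly alike. The number of members at least 2-fold higher in replicate 2 was 1 (2.22% of all genes), 5 under spike-in scaling (6.05% of all genes), 0 with a minimum mean count of 500, which leaves out Cox8b (1.69% of all genes), and 12 at 1.5-fold (7.73% of all genes). Undivided by length, the shares of nuclear protein-coding counts were 2.57% for all members, 0.598% for complex I, 0.319% for complex III, 0.394% for complex IV, 1.04% for complex V and 0.0289% for cytochrome c, and Ndufv3-202 held 67.2% of its gene. With copies added, a setting chosen after the data were seen, means were 1672 TPM for Cycs, 396 TPM for Ndufb4, 1053 TPM for Atp5l, 489 TPM for Atp5g2, 1562 TPM for Cox7c and 1448 TPM for Atp5g1. In these sums the reads of each copy were divided by the copy's own length. No paired analysis was possible because there is 1 group. Depth limits Cox8b (285 counts in replicate 2 and 90 in replicate 1) and the 3 genes below 1 TPM, and 2 libraries give no test between them.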
